A study of Mus musculus with 10 samples.

Results

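Blood endothelium and leukocyte adhesion were followed in mouse skin through 10 genes: Pecam1, Cdh5, Kdr, Tek, Vwf, Plvap, Sele, Selp, Icam1 and Vcam1. They were taken by symbol from a count table of 47729 genes, and all 10 were found there and were among the 17668 genes that passed the filter on low counts. The labels describe 10 skin libraries from C57BL/6 males, of which 5 carry an age of 9 months and 5 an age of 24 months, and name no treatment or altered allele. A separate line of the record puts the younger group at 2 months, so its age is uncertain in every comparison that follows. Body site and hair cycle stage were not stated.

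Blood vessels are lined by endothelial cells, which hold to each other through junction proteins, receive growth signals through receptor tyrosine kinases and store clotting factor and P-selectin in granules. When tissue is inflamed, the lining of small veins displays selectins, on which leukocytes roll, and then immunoglobulin-type adhesion molecules, to which leukocyte integrins bind firmly before the cells leave the vessel. In skin this recruitment takes place mainly in the small vessels of the dermis. The genes differ in how far they mark endothelium. Cdh5, Kdr, Tek, Plvap and Sele are largely confined to it, Vwf and Selp are also made in megakaryocytes and carried in platelets, Pecam1 is also on platelets and many leukocytes, and Icam1 and Vcam1 can also be made by leukocytes, keratinocytes or stromal cells.

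The adhesion genes stood higher in the older libraries and the other genes differed less between the ages, but no gene passed the test. By edgeR's quasi-likelihood test (Benjamini-Hochberg), 0 of the 10 genes were called at an adjusted p under 0.05, against 0% of all genes tested as called higher and 0% as called lower. At an unadjusted p under 0.05, 4 of the 10 were higher at 24 months and 0 were lower, where 6.62% of all genes tested were higher and 6.45% lower. Those 4 were Sele, Selp, Icam1 and Vcam1. With libraries scaled to the total count only, the numbers of all genes past that mark were 1446 higher and 889 lower, in place of 1169 and 1139. The median log2 fold change, for 24 over 9 months, was 0.30 over the 10 genes and 0.10 over the 6 others, against -0.01 over all genes tested. Fold changes were positive for 9 of the 10 genes and for 48.4% of all genes tested. DESeq2 on the same filtered counts called 2 of the 10, Selp (adjusted p = 0.013) and Sele (adjusted p = 0.0213), where it called 2.22% of all genes tested as higher and 2.24% as lower.

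**Figure D1:**
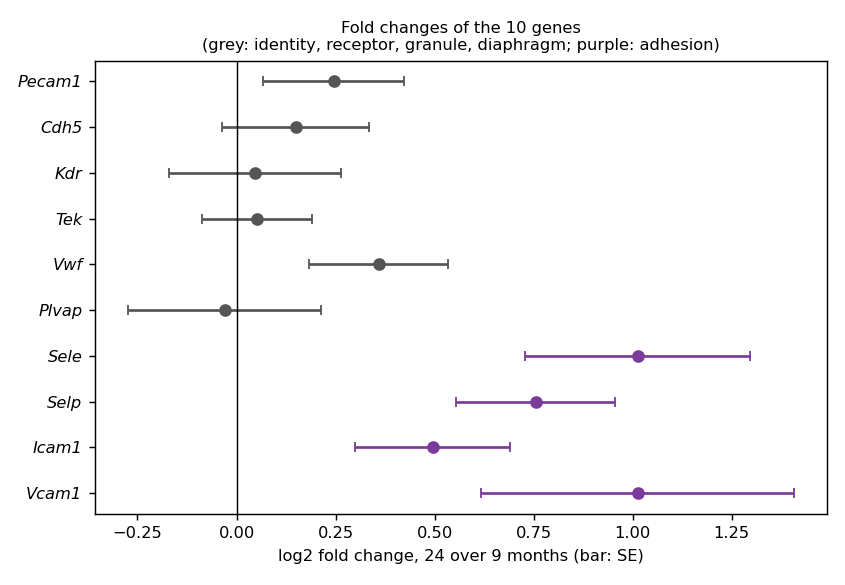
Log2 fold change of each gene, 24 over 9 months, from edgeR (x axis), with bars of 1 SE; grey points are the identity, receptor, granule and diaphragm genes and purple points the adhesion genes. The purple points lie between 0.49 and 1.01 and the grey ones between -0.03 and 0.36.

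Several libraries stood apart and bear on what follows. In 9 months replicate 1, levels followed the length of the transcript: among genes with 1 to 2 kb of merged exon its median log2 deviation from the gene's median was 0.51, and among genes over 8 kb it was -0.40, while the other 9 libraries lay between -0.13 and 0.03 and between -0.07 and 0.11. Growing hair keratin and root sheath markers summed to 8153 and 25839 CPM (a gene's count relative to the scaled library total) in 9 months replicates 4 and 5 and to 37 to 301 CPM in the 8 others. Fibroblast markers summed to 7779 to 11234 CPM at 9 months and were below that in every older library, at 4415 to 6617 CPM in 24 months replicates 3, 4 and 5 and at 1630 and 1124 CPM in replicates 1 and 2. White adipocyte markers summed to 4229 CPM in 24 months replicate 1. Depth ran from 29324259 to 55976007 counts per library, and the lowest count of any of the 10 genes in any library was 105.

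**Figure D2:**
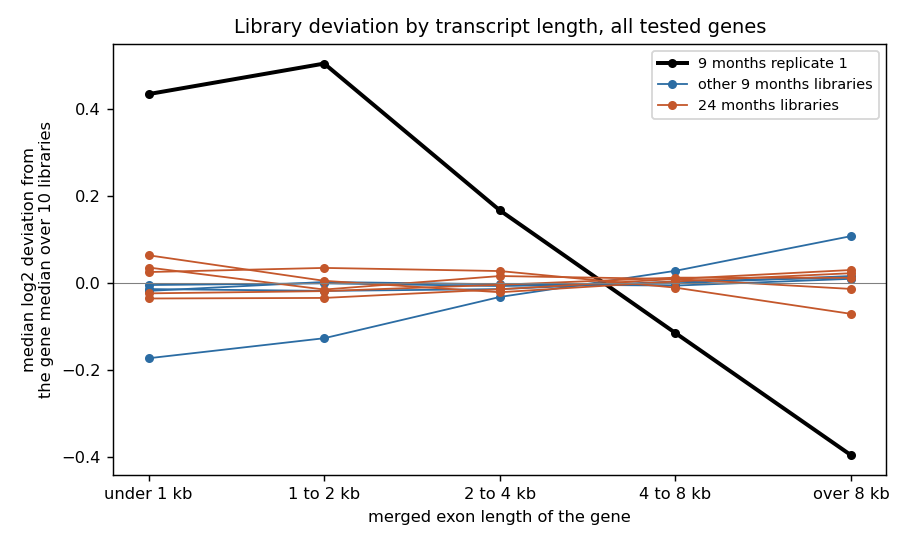
Median log2 deviation of each library from the gene's median over 10 libraries (y axis), by merged exon length of the gene (x axis), over all tested genes. The black line, 9 months replicate 1, runs from 0.44 for genes under 1 kb to -0.40 for genes over 8 kb, apart from the other lines.

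Pecam1 and Cdh5 encode the junction molecules CD31 and VE-cadherin. Pecam1 (ENSMUSG00000020717, on the minus strand of chromosome 11 from 106654217 to 106750628 of GRCm38) stood at 140, 108, 107, 91.9 and 89.8 CPM in 9 months replicates 1 to 5 and at 146, 142, 146, 115 and 86.5 CPM in 24 months replicates 1 to 5. In 3 older libraries the level lay just above the highest younger one, and the lowest level of all was also in an older library, replicate 5. Pecam1 had a log2 fold change of 0.25 ± 0.18 (SE, 5 libraries per age; adjusted p = 0.612, edgeR).

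Cdh5 (ENSMUSG00000031871, on the plus strand of chromosome 8 from 104101625 to 104144511) stood at 55.8, 62.8, 74.3, 75.6 and 61.0 CPM in the younger libraries and at 83.6, 74.4, 94.2, 68.8 and 44.4 CPM in the older ones. The ages overlapped, and the older libraries spread more widely, with a coefficient of variation of 25.6% against 13.1%. Its log2 fold change was 0.15 ± 0.19 (SE; edgeR adjusted p = 0.79), and 0.29 without 24 months replicate 5. In bulk skin, a difference in the number of endothelial cells and a difference in RNA per endothelial cell cannot be told apart.

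Kdr encodes the main signalling receptor for vascular endothelial growth factor, and Tek the receptor for angiopoietins, which stabilise vessels. Kdr (ENSMUSG00000062960, on the minus strand of chromosome 5 from 75932827 to 75978458) stood at 42.2, 41.6, 50.9, 55.5 and 37.3 CPM in the younger libraries and at 62.1, 59.3, 47.2, 39.7 and 26.8 CPM in the older ones. The older libraries held both the highest and the lowest values. Kdr had a log2 fold change of 0.05 ± 0.22 (SE; edgeR adjusted p = 0.958), and -0.26 without 24 months replicates 1 and 2.

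Tek (ENSMUSG00000006386, on the plus strand of chromosome 4 from 94739289 to 94874976) was the steadiest of the 10. It stood at 46.0, 49.1, 51.5, 42.2 and 39.7 CPM in the younger libraries and at 43.0, 41.1, 58.8, 52.9 and 40.8 CPM in the older ones. Older replicates 3 and 4 lay above every younger library and the 3 others lay within the younger range, with a log2 fold change of 0.05 ± 0.14 (SE; edgeR adjusted p = 0.923). Its coefficient of variation was 10.6% at 9 months and 17.1% at 24 months.

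Vwf encodes von Willebrand factor, the clotting protein stored in endothelial granules, and Plvap the protein of the diaphragms that span fenestrae and caveolae. Vwf (ENSMUSG00000001930, on the plus strand of chromosome 6 from 125546774 to 125686679) stood at 57.5, 70.8, 72.4, 50.9 and 59.3 CPM in the younger libraries and at 72.4, 89.3, 99.9, 85.1 and 52.3 CPM in the older ones. Older replicates 2, 3 and 4 lay above all younger libraries, while replicate 5 lay near the bottom of the younger range. Vwf had a log2 fold change of 0.36 ± 0.18 (SE; edgeR adjusted p = 0.419).

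Plvap (ENSMUSG00000034845, on the minus strand of chromosome 8 from 71497765 to 71511752) stood at 187, 98.0, 90.1, 69.2 and 99.9 CPM in the younger libraries and at 103, 119, 120.0, 116 and 76.3 CPM in the older ones. The value of 187 CPM came from 9 months replicate 1, the library with the length trend, and Plvap has the shortest merged exon length of the 10 genes, 1987 bases. With that library the log2 fold change was -0.03 ± 0.24 (SE; edgeR adjusted p = 0.976). Without it the value was 0.25 (edgeR adjusted p = 0.495), and with each library's length trend removed it was 0.062. The sign of the Plvap difference also turned in fits that kept that library as it was, at 0.026 with total counts only and 0.032 with limma-voom.

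**Figure D3:**
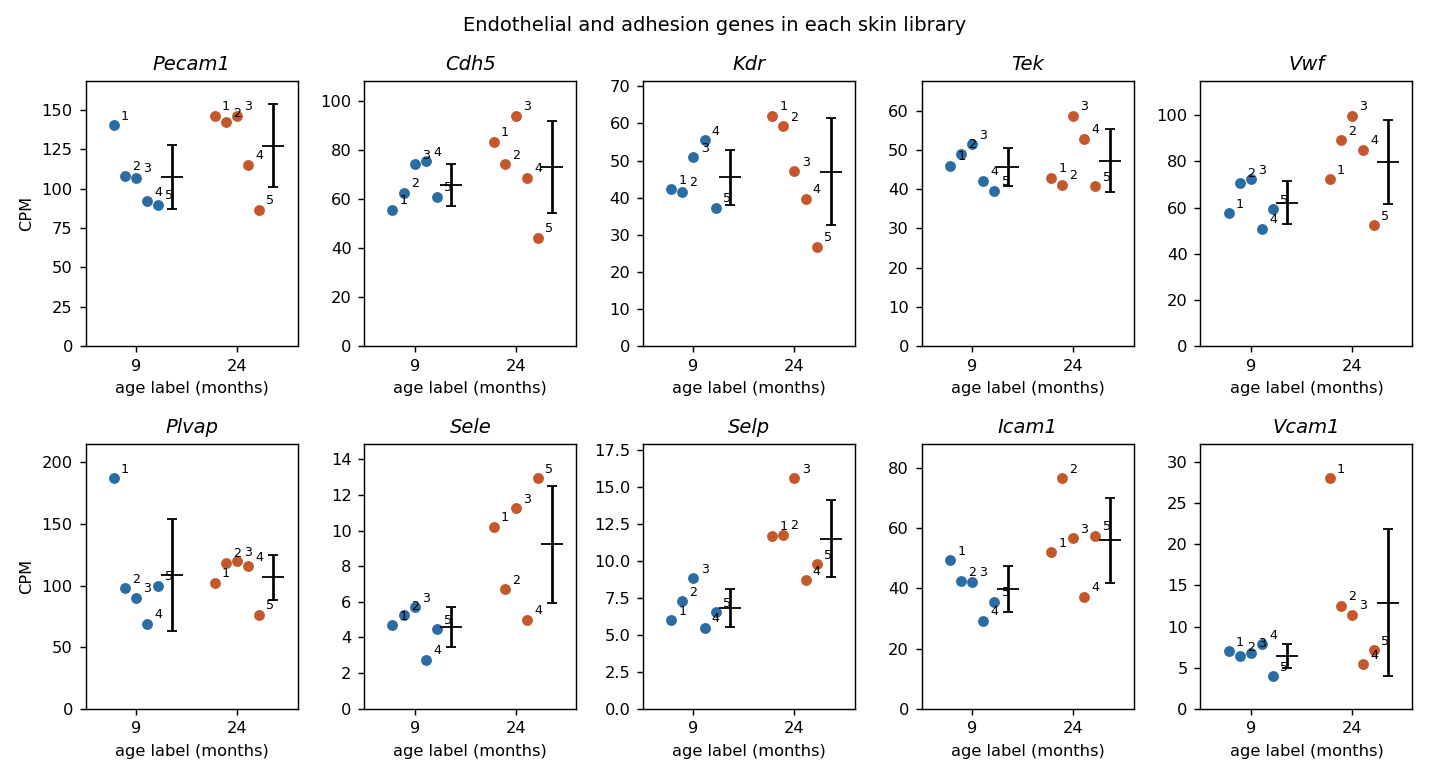
CPM of each gene (y axis, from 0) in every library, by age label in months (x axis); points carry the replicate number, and black bars show the mean and SD of 5 libraries. Sele, Selp, Icam1 and Vcam1 have higher means at 24 months, whereas Plvap at 9 months is set by replicate 1 at 187 CPM.

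Sele and Selp encode E-selectin and P-selectin, the rolling receptors that bind sugar ligands on leukocytes. E-selectin is made on demand after cytokine stimulation, whereas P-selectin is also held ready in granules. Sele (ENSMUSG00000026582, on the plus strand of chromosome 1 from 164048234 to 164057677) stood at 4.69, 5.25, 5.69, 2.76 and 4.47 CPM in the younger libraries and at 10.2, 6.70, 11.3, 5.00 and 12.9 CPM in the older ones. Of the 5 older libraries, 4 lay above every younger one, and replicate 4 lay within the younger range. The log2 fold change was 1.01 ± 0.28 (SE, n = 5 each; edgeR adjusted p = 0.164), a ratio of 2.02.

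Selp (ENSMUSG00000026580, on the plus strand of chromosome 1 from 164115264 to 164150026) stood at 5.99, 7.28, 8.83, 5.47 and 6.51 CPM in the younger libraries and at 11.7, 11.8, 15.6, 8.71 and 9.78 CPM in the older ones. The groups met at a single pair of libraries, 9 months replicate 3 and 24 months replicate 4. Selp had a log2 fold change of 0.75 ± 0.20 (SE; edgeR adjusted p = 0.163). None of the 10 genes had groups without overlap, where 1.66% of all genes tested did so with higher and 1.23% with lower values at 24 months.

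Icam1 and Vcam1 encode the firm adhesion molecules, bound by the leukocyte integrins of the beta-2 family and by alpha-4 integrin. Icam1 (ENSMUSG00000037405, on the plus strand of chromosome 9 from 21015985 to 21028817) stood at 49.3, 42.4, 42.2, 29.3 and 35.6 CPM in the younger libraries and at 52.0, 76.6, 56.7, 37.2 and 57.5 CPM in the older ones. Replicate 4 was again the only older library within the younger range. The log2 fold change was 0.49 ± 0.19 (SE; edgeR adjusted p = 0.294). It was 0.32 without 9 months replicates 4 and 5 and 0.34 without 24 months replicates 1 and 2, neither with an unadjusted p under 0.05.

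Vcam1 (ENSMUSG00000027962, on the minus strand of chromosome 3 from 116109949 to 116129688) stood at 6.98, 6.38, 6.82, 7.86 and 3.95 CPM in the younger libraries and at 28.0, 12.5, 11.4, 5.42 and 7.14 CPM in the older ones. Its difference leaned on 24 months replicate 1, and 2 older libraries lay within the younger range. The log2 fold change was 1.01 ± 0.40 (SE; edgeR adjusted p = 0.29). It was 0.51 without that replicate and 0.32 without 24 months replicates 1 and 2. Whether counting used strand was not stated: the opposite-strand genes that share exon bases with Selp and Vcam1, Gm16587, Gm16548 and Gm43109, were counted at no more than 0.457 CPM, and Gm47079, which shares 511 exon bases with Icam1, was not analysed here.

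The promoters of the adhesion genes are where cytokine signals reach these genes, mainly through the factor NF-kB, and those of Sele, Selp and Icam1 are shown as 3 of the 4 genes with an unadjusted p under 0.05. RefSeq windows on GRCm38.p6, 250 bases before to 50 after the start, were given for 5 of the 10 genes, Kdr, Tek, Sele, Selp and Icam1. A first kappa B form, GG, 3 bases of any kind, TT, 1 base of any kind and CC, and a second, GGNANTTCC, were searched on both strands, and 15.3% and 4.72% of 32544 mouse promoter windows held them. Capitals mark their matches in the windows chr1:164047984-164048283 for Sele, chr1:164115014-164115313 for Selp and chr9:21015690-21015989 for Icam1, all on the plus strand and written 5′ to 3′.
Sele: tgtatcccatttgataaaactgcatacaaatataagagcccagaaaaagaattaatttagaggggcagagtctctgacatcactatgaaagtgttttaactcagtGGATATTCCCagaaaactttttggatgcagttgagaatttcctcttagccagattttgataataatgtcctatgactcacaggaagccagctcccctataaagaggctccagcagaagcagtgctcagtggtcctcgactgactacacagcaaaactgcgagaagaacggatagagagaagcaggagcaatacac
Selp: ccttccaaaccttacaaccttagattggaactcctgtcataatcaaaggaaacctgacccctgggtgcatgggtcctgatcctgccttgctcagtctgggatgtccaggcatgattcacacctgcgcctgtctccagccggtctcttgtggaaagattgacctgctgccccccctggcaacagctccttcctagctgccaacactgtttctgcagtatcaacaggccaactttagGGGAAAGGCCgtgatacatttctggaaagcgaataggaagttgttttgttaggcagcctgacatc
Icam1: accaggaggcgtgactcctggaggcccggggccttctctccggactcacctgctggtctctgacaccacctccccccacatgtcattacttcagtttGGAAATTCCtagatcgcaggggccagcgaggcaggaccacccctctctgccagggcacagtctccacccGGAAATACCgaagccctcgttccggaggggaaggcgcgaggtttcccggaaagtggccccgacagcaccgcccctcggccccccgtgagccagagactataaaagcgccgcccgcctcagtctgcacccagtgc
Sele held the first form at bases 106 to 115 of its window, an AP-1 motif (TGANTCA, in 7.79% of windows) at bases 178 to 184 and a TATA motif (TATAAA, in 13.6%) at bases 202 to 207. Icam1 held the second form at bases 98 to 106, where it reads on both strands, and at bases 167 to 175, where it reads on the other strand only, and a TATA motif at bases 264 to 269. The second Icam1 match overlaps an ETS motif (CCGGAA, in 15% of windows) at bases 165 to 170. Selp held the first form at bases 236 to 245 on the other strand, and an AP-1 motif at bases 112 to 118. Kdr held the first form at bases 196 to 205, also on the other strand, and Tek held neither. The letters are a description of the windows and do not show that a factor binds there.

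Levels per kilobase of merged exon placed the genes in order. Merged exon counts all annotated exon bases of a gene, 8870 for Vcam1 and 2912 for Sele, so the order depends on that length. Before division by length, Vcam1 had a mean of 6.40 CPM at 9 months, against 4.57 for Sele and 6.82 for Selp. Plvap was highest, at 54.8 ± 22.9 CPM per kb at 9 months and 53.7 ± 9.21 at 24 months (SD, n = 5 each), and lay above Pecam1 in all 10 libraries. Pecam1, at 17.2 ± 3.25 and 20.4 ± 4.21 CPM per kb, lay above Cdh5, at 15.7 ± 2.06 and 17.4 ± 4.45, in only 7 of 10 libraries, and Icam1 and Tek each lay above the other in 5. Tek lay above Kdr in all 10. Kdr and Vwf, at 5.04 ± 0.826 and 3.87 ± 0.571 CPM per kb at 9 months, kept their order in 7 libraries. Sele, Selp and Vcam1 closed the order, at 1.57 ± 0.385, 1.54 ± 0.296 and 0.721 ± 0.166 CPM per kb at 9 months and at 3.17 ± 1.13, 2.61 ± 0.594 and 1.46 ± 1.01 at 24 months. Sele lay above Selp in 6 libraries, so that these neighbours did not separate.

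The older libraries ordered the identity and the adhesion genes differently. Among the 5 older libraries, replicate 5 was lowest for all 6 of Pecam1, Cdh5, Kdr, Tek, Vwf and Plvap, and replicate 3 was highest for 5 of these 6. Replicate 4 was lowest for all 4 adhesion genes. Replicate 5 nevertheless held the highest Sele level of all libraries, 12.9 CPM. The same library had the highest Ccl2, a monocyte chemokine, at 73.5 CPM against 3.27 to 32.1 CPM elsewhere, and the highest Csf1, a macrophage growth factor, at 144 CPM. Both genes belong to the NF-kB list below and were picked out here after their values were seen. The genes that the naming rule takes from that list were highest elsewhere, Nfkbie and Birc3 in 24 months replicate 1 and Traf1 in 24 months replicate 3. Among the younger libraries, replicate 4, with growing hair, was lowest for 3 of the 4 adhesion genes, Sele, Selp and Icam1, but highest for Vcam1, at 7.86 CPM. Replicate 5 of the younger group, also with growing hair, was lowest for Vcam1. The part of growing hair in the difference was not tested apart from leaving these libraries out or adding the marker level to the fit. With the growing-hair level as a covariate the log2 fold changes were 0.80 for Sele, 0.66 for Selp, 0.31 for Icam1 and 0.84 for Vcam1, and Selp alone had an unadjusted p under 0.05.

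**Figure D4:**
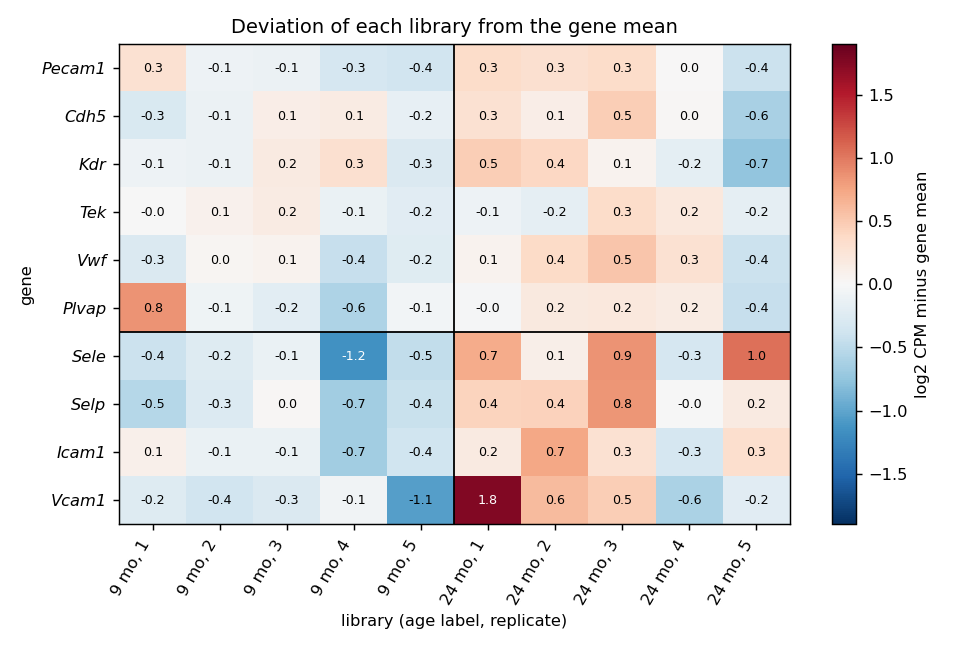
Log2 CPM of each gene (rows) in each library (columns: age label in months, replicate) minus the gene's mean over the 10 libraries, in colour and as printed values. The adhesion rows, under the horizontal line, are mostly blue (below the mean) at 9 months and red (above it) at 24 months, except 24 months replicate 4 and Vcam1 in replicate 5; in the upper rows, 24 months replicate 5 is blue throughout, at -0.75 to -0.18.

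Setting the adhesion genes against Cdh5, per kilobase, gave their level relative to an endothelial transcript. Selp was 10.2%, 11.04%, 11.3%, 6.90% and 10.2% of Cdh5 in the younger libraries and 13.3%, 15.04%, 15.7%, 12.05% and 21.0% in the older ones. All 5 older libraries lay above all 5 younger ones, by a narrow margin. Sele was 5.27% to 12.1% of Cdh5 in the younger libraries and 10.5% to 42.1% in the older ones, with replicate 5 at the top, and 4 of 5 older libraries lay above every younger one. That library, 24 months replicate 5, had the lowest Cdh5 of all libraries, 44.4 CPM, which raised its ratios. Its Sele level, 12.9 CPM, was close to the 11.3 CPM of 24 months replicate 3, where the ratio was 17.3%. Icam1 overlapped widely, at 37.4% to 85.2% and 52.1% to 125%, as did Vcam1, at 3.07% to 5.93% and 3.73% to 15.9%. Against Pecam1 in place of Cdh5, 3 older libraries lay above every younger one for Selp and for Sele. These ratios were chosen after the levels were known and carry no test.

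**Figure D5:**
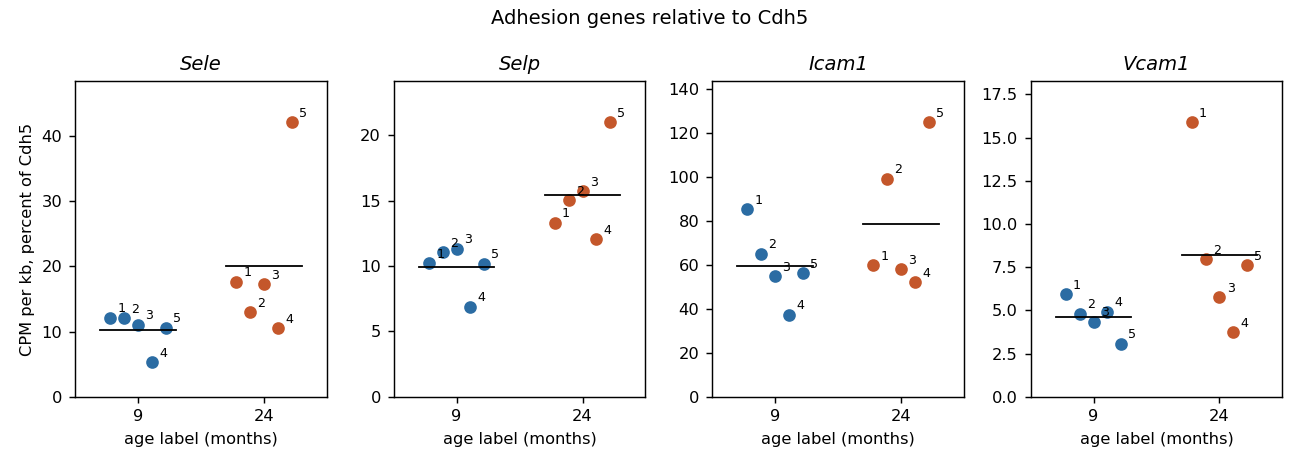
CPM per kb of each adhesion gene as a percentage of Cdh5 (y axis, from 0) in every library, by age label in months (x axis); points carry the replicate number and black lines are means of 5 libraries. Selp lies at 12.05% to 21.0% at 24 months, above 6.90% to 11.3% at 9 months. Sele reaches 42.1% in 24 months replicate 5, the library with the lowest Cdh5.

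Other genes of blood endothelium gave no settled direction as a list. Of 25 further genes, 20 had positive fold changes, where 48.4% of all genes tested did. At an unadjusted p under 0.05, 4 were higher and 0 lower, where 6.62% of all genes tested were higher and 6.45% lower. After adjustment 0 were called, and the median log2 fold change was 0.17. That median was -0.086 with the growing-hair covariate, 0.021 without 9 months replicates 4 and 5 and 0.064 without 24 months replicates 1 and 2. The 25 genes had their highest sum of all libraries, 2233 CPM, in 9 months replicate 1, the library with the length trend. Nos3, the endothelial nitric oxide synthase, had a log2 fold change of 0.62 ± 0.22, Fli1, an endothelial and blood cell transcription factor, 0.55 ± 0.19, and Flt1, a decoy receptor for vascular endothelial growth factor, 0.39 ± 0.16 (SE). In 24 months libraries Nos3 stood at 16.0 to 32.3 CPM against 9.65 to 15.6 CPM, without overlap, as 1.66% of all genes tested did with higher values. Among 9 arterial genes 2 were higher and 3 lower; Bmx, an endothelial kinase, had a log2 fold change of 0.66 ± 0.19, the guidance cue Sema3g 0.55 ± 0.20 and the netrin receptor Unc5b -1.42 ± 0.53. Unc5b reached 184 CPM in 9 months replicate 5, a growing-hair library, and at most 33.5 CPM at 24 months. Venous and high endothelial genes had 0 of 6 tested members past the mark, with a median of 0.19, which was -0.038 with the growing-hair covariate, 0.015 without 24 months replicate 1 and -0.026 without 24 months replicates 1 and 2. Ackr1, the chemokine-binding receptor of venules, had a log2 fold change of 0.46 ± 0.33. The mucins and enzyme that define high endothelial venules in this list, Glycam1, Madcam1 and Chst4, did not pass the filter on low counts.

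Growth factors and flow-linked genes gave no shared direction. Of 8 vascular growth factors, 2 were higher and 0 lower at an unadjusted p under 0.05, where 6.62% of all genes tested were higher and 6.45% lower. The median log2 fold change of the 8 was -0.14, or 0.078 without 9 months replicate 1 and 0.056 without 24 months replicates 1 and 2. Vegfa, the ligand of Kdr, had a log2 fold change of 0.49 ± 0.17, the lymphatic and vascular ligand Vegfd 0.59 ± 0.24, and the Tek ligand Angpt2 -0.32 ± 0.19 (SE; edgeR adjusted p = 0.229, 0.308 and 0.524). Among 5 flow-responsive genes 2 were higher and the median was 0.18, or -0.058 with the growing-hair covariate. S1pr1, a receptor that steadies endothelial junctions, had a log2 fold change of 0.72 ± 0.20 and the flow-induced factor Klf2 -0.46 ± 0.38, with 152 CPM in 9 months replicate 1. Basement membrane genes of vessels had a median of -0.34 with 0 of 9 past the mark; Col4a2 and Col4a1, the chains of the vessel wall collagen, had log2 fold changes of -0.55 ± 0.27 and -0.50 ± 0.30, and the laminin binder Nid2 -0.65 ± 0.30. Pericyte and smooth muscle markers had a median of -0.08, with 0 higher and 1 of 11 lower, the smooth muscle actin gene Acta2 at -0.52 ± 0.20.

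Genes on the leukocyte side and upstream of adhesion leaned higher at 24 months. Of 12 leukocyte ligands and integrins, 5 were higher and 0 lower at an unadjusted p under 0.05, and their median log2 fold change was 0.52. At that mark 6.62% of all genes tested were higher and 6.45% lower. Itgal, the integrin chain that binds Icam1, had a log2 fold change of 1.24 ± 0.31 and Spn, a leukocyte sialomucin, 1.19 ± 0.24 (SE; edgeR adjusted p = 0.163 and 0.142). Itgal stood at 3.63 to 8.94 CPM at 9 months and at 9.66 to 24.5 CPM at 24 months, without overlap. Of all genes tested, 1.66% were higher at 24 months without overlap. Of 14 tested NF-kB feedback and target genes, all 14 had positive fold changes, where 48.4% of all genes tested did. Of the 14, 6 were higher and 0 lower, and the median was 0.49. Nfkbie, an inhibitor of NF-kB, had a log2 fold change of 0.75 ± 0.19, Birc3, an inhibitor of cell death, 0.57 ± 0.14 and the adaptor Traf1 0.66 ± 0.22. Of 13 cytokines and receptors that induce adhesion molecules, 5 were higher and 0 lower, with a median of 0.68; Il1b, an inducer of adhesion molecules, had a log2 fold change of 1.403 ± 0.42, lymphotoxin beta, Ltb, 1.46 ± 0.49 and the interferon gamma receptor chain Ifngr1 0.71 ± 0.17. That median was 0.31 without 24 months replicates 1 and 2 and 0.33 with the growing-hair covariate. Other vascular adhesion molecules differed from these, with 0 higher and 2 of 9 lower and a median of 0.04, which turned to -0.13 with the growing-hair covariate and to -0.083 without 24 months replicate 1. Alcam, at -1.03 ± 0.34, was highest in 9 months replicate 5, at 144 CPM, F11r had a log2 fold change of -0.30 ± 0.17 and Cd99l2 -0.31 ± 0.14. No gene of these lists passed the adjusted threshold.

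Markers of other cells that carry some of these transcripts were set beside them. General leukocyte and lymphocyte markers, 6 of 6 found, summed to 40.8 to 79.1 CPM at 9 months and 101 to 319 CPM at 24 months. Neutrophil markers, 5 of 5, summed to 9.07 to 16.1 and 40.0 to 114 CPM, and both sums were without overlap. At an unadjusted p under 0.05, 5 of the 6 and 5 of the 5 were higher, where 6.62% of all genes tested were higher and 6.45% lower. Macrophage markers overlapped, at 262 to 383 and 225 to 605 CPM. Platelet markers, 9 of 9 found, also overlapped, at 56.8 to 93.1 and 48.8 to 95.2 CPM; of the 8 tested, 2 were higher, Gp9 with a log2 fold change of 1.54 ± 0.42 and Ppbp with 1.08 ± 0.31, and the median was 0.32. Itga2b, the platelet integrin chain, had 0.30 ± 0.14. Fibroblast markers, 6 of 6 found, were lower in every older library than in any younger one, as given above; the median log2 fold change of the 6 was -1.16, and 3 of them, the collagen genes Col1a1, Col1a2 and Col3a1, had an unadjusted p under 0.05. Red cell markers summed to 353 to 1030 and 202 to 2051 CPM. Lymphatic markers, whose median log2 fold change was 0.17, or -0.0060 with the growing-hair covariate, with 0 of 6 past the mark, summed to 72.2 to 91.8 and 49.1 to 124 CPM, with Ccl21a at 0. Keratinocyte markers summed to 9452 to 18275 and 8495 to 17536 CPM, and skeletal muscle markers to 15423 to 44158 and 17918 to 31587 CPM. The summed level of the 25 further blood endothelial genes was 1279 to 2233 CPM at 9 months and 1589 to 2087 CPM at 24 months. The 2233 CPM was that of 9 months replicate 1, and the next younger library stood at 1843 CPM. The part of leukocytes, platelets, fibroblasts or other cells in the levels of Selp, Icam1 and Vcam1 was not tested.

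Genes whose pattern over the 10 libraries lay closest to each member were found by the root mean square distance between centred log2 CPM, over 13982 genes with a mean of at least 1 CPM. Pecam1 lay nearest to Tie1, an endothelial receptor, at 0.09, and to Eng, a TGF-beta co-receptor of endothelium, at 0.13, where the spread of Pecam1 about its own mean was 0.29 on this log2 scale. Cdh5 and Vwf shared a neighbour, the endothelial matrix gene Mmrn2, at 0.15 and 0.13, and Vwf also lay near Csmd1, at 0.13. Tek lay nearest to the pericyte receptor gene Pdgfrb, at 0.08, and to Lman2l, at 0.09. Kdr lay nearest to Acadvl and Hadha, enzymes of mitochondrial fat oxidation, at 0.13 and 0.15, and Plvap to Gatm and Mal, at 0.15 and 0.16. Icam1 lay nearest to Relb, a subunit of NF-kB, at 0.17, with a spread of its own of 0.38, and to Prom1, at 0.18. Sele lay nearest to Irak3, a brake on interleukin 1 signalling, at 0.30, and to Plekho2, at 0.31, with a spread of 0.65. Selp lay nearest to Pitpnm1 and Nova2, both at 0.18 to 0.19, and Vcam1 to Vnn3 at 0.23 and to the lymphocyte gene Gimap6 at 0.26, with a spread of 0.74. All these distances come from the same 10 libraries and their shared depth and cell content.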

How the data were processed

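Skin RNA was made into libraries with an Illumina mRNA multiplex kit, per the labels' protocols. The submitters' processing notes name CASAVA 1.7, STAR 2.4.1d and featureCounts 1.4.6-p4 with GRCm38, without roles; strand setting and the treatment of multi-mapping reads were not stated. The deposited count table holds raw counts, 29324259 to 55976007 per library. The authors' RPKM table was not used for results: over 8455 genes the count divided by RPKM and by the library total varied with a median SD of 0.44 on the log2 scale between libraries, where it should be constant.

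Genes passing filterByExpr (17668) received TMM scaling factors and were tested with edgeR 4.0.16 (robust quasi-likelihood F test, R 4.3.3, adjustment over all tested genes). The SE was derived from the F statistic. CPM values use the scaled library sizes; nearest patterns used log2 CPM with a prior count of 2. DESeq2 1.42.0 and limma 3.58.1 were alternatives. The scripts were tested on simulated data. Symbols were found for 47224 identifiers; coordinates and merged exon lengths are from GENCODE vM21 (GRCm38), promoters from RefSeq. Titles carry a different number for each library, but no label says that these are separate mice, so p-values measure only the spread between these libraries, which may be technical. Replicates were numbered in listed order.

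The 10 genes and all lists were chosen with earlier results of these data known. Named genes were the 10 members, up to 3 per list with the smallest p, and the 2 nearest patterns per member; 2 genes that this rule names are not reported here, and Ccl2 and Csf1 were added after their values were seen. Alternatives were 3 other scalings, 2 filters, 3 tests and covariates for growing hair and adipocytes. Each library was left out in turn, and so were 2 pairs, 9 months replicates 4 and 5 and 24 months replicates 1 and 2. These pairs are the growing-hair libraries and the older libraries with the lowest fibroblast marker sums. Removal of each library's length trend was added after seeing the data.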

Additional observations from a re-analysis of the deposited data

Results flagged for a closer look

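Plvap in 9 months replicate 1 stood at 187 CPM, far from the 4 other younger libraries at 69.2 to 99.9 CPM; its gap to the nearest, as a share of the group's range, was 0.739, above the critical value of 0.71 for 5 samples. The same library was the one with levels that followed transcript length, and without it the log2 fold change of Plvap was 0.25. White adipocyte markers summed to 4229 CPM in 24 months replicate 1, against 583 to 1263 CPM in the 4 other older libraries, with a gap of 0.813 of the range. That library also held the highest Vcam1 level, 28.0 CPM. With 44 groups examined in this way, chance would flag about 1 in 20.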

How the results depend on the processing

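Over 23 alternatives, Sele, Selp, Icam1 and Vcam1 kept positive log2 fold changes, at 0.80 to 1.17, 0.62 to 0.86, 0.31 to 0.61 and 0.32 to 1.21, and Pecam1, Cdh5 and Vwf did too, at 0.01 to 0.36, 0.04 to 0.29 and 0.25 to 0.48. DESeq2 called 2 of the 10 genes as higher, and 384 and 387 of all genes as higher and lower. The number of the 10 genes higher at an unadjusted p under 0.05 was 4, and it was 1 with the growing-hair covariate, 2 without 9 months replicates 4 and 5, 2 without 24 months replicates 1 and 2, and 2 to 5 with single libraries left out, the lowest without 9 months replicate 5. Selp passed that mark in all 23 alternatives and Sele in 22. Of all genes, 1 was called higher with no filter on low counts, 1 lower with the growing-hair covariate, 1 lower without 9 months replicates 4 and 5, and 0 to 8 higher with single libraries left out, the 8 without 24 months replicate 4. Genes near zero turned sign. Kdr was at -0.0057 with limma-voom, -0.26 without 24 months replicates 1 and 2 and -0.074 to 0.20 with single libraries left out. Tek was at -0.10 with the growing-hair covariate, -0.048 without 9 months replicates 4 and 5 and -0.040 to 0.10 with single libraries left out. Plvap was at -0.37 with the growing-hair covariate, -0.24 without 9 months replicates 4 and 5, 0.026 with total counts only, 0.032 with limma-voom, 0.062 with the length trend removed and -0.16 to 0.25 with single libraries left out. Beyond the left-out libraries, the cause was not tested. The lowest raw count of the 10 genes was 105. No paired analysis was possible because the libraries carry no number shared between the ages.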
